A study of Drosophila melanogaster with 14 samples.

Results

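The genes of the *Drosophila* dosage compensation complex were followed in testes depleted of lamins. The set was defined by name and holds 9 of the genes and RNAs that form the Male-Specific Lethal (MSL) complex or guide it: *msl-1*, *msl-2*, *msl-3*, *mle*, *mof*, *Clamp*, *JIL-1* and the noncoding RNAs *roX1* and *roX2*. Of these, 7 had a row among the 13776 genes of each RNA table, had reads in all 6 libraries and passed the filter on weakly expressed genes. The 2 *roX* RNAs were not analysed here, because their identifiers match no row of the tables used here. *msl-1*, *msl-2* and *Clamp* lie on 2L, *mle* on 2R, *msl-3* and *JIL-1* on 3L, and *mof* is the single X-linked member of the 7.

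In somatic cells of males, the MSL complex binds active genes of the X chromosome, acetylates histone H4 at lysine 16 there and raises their transcription, so that the single X is equalized with the autosomes. *msl-1* encodes the scaffold and *msl-2* the limiting subunit, whose translation is blocked in females by the Sxl protein. In germline cells of males, the complex is thought not to operate on the X, although several of its genes also have other roles there.

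The series comprises 14 samples, of which the 6 RNA libraries carry the comparison. Control testes were from third-instar larvae with the *bam-Gal4-VP16* driver alone, and Lam-KD testes from larvae with *UAS-LamC-RNAi/+* and with *UAS-LamDm0-RNAi* opposite the same driver, so that both groups carried the driver and the hairpins against *Lam* and *LamC* were present only in the second. Each group had 3 biological replicates of about 200 pooled testes, and the remaining samples were Lam-DamID libraries of spermatogonia (SpG) and spermatocytes (SpCs). The SpG libraries came from adult testes homozygous for a *bam* mutation and the SpC libraries from third-instar larval testes, with different Dam constructs. Stage, genotype, age and construct thus cannot be told apart between them. The driver is germline-specific and was used to deplete lamins in SpCs, whereas somatic cells of the testis kept theirs, and the effect of knockdown and of the differing strain backgrounds cannot be told apart.

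The tables hold between 5651960 and 7437111 expected reads per library, with the lowest number in control 2. The RNAi targets were depleted: *Lam* had 87.0, 96.8 and 69.7 TPM, an abundance corrected for transcript length and library size, in the controls and 16.7, 15.1 and 14.9 upon Lam-KD, and *LamC* to 28.6, 32.1 and 19.2 against 8.35, 9.36 and 7.08. All 8 spermatocyte markers, such as *aly* and *can*, were expressed, with summed TPM of 650 to 770 in controls and 750 to 768 upon Lam-KD. Fat body genes were also present in every library, with summed TPM of 5954 to 8903 and 4772 to 7653, respectively. In such bulk samples, fewer cells of a type and less RNA per cell cannot be told apart.

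None of the 7 genes passed the test for a change upon Lam-KD. A gene was called changed when the Benjamini-Hochberg adjusted *P* of edgeR's quasi-likelihood test was under 0.05 and the fold change of mean TPM was over 1.5. By this rule 0 of 7 members were called, beside 661 of 10318 tested genes (6.41%). At an unadjusted *P* under 0.05 there was 1 member, *msl-1*, beside 34.4% of all tested genes, and DESeq2 also called 0 members. The 95% interval of the fold change was within 1.5-fold in both directions for 6 members and reached 1.52-fold for *msl-1*. The median log2 fold change was 0.040 for the members and 0.013 for all tested genes.

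Among subunits, *msl-1* showed the largest difference. It amounted to 4.40, 4.67 and 3.57 TPM in the controls and 5.77, 5.75 and 4.71 TPM upon Lam-KD. All Lam-KD values were thus above all controls, although the lowest of them exceeded control 2 only slightly. The expected reads behind these values ranged from 96 to 134 in controls and from 148 to 192 upon Lam-KD. The log2 fold change was 0.34 ± 0.12 (SE, n = 3 per group) with an adjusted *P* of 0.0813 in edgeR, so that the difference did not pass the test. Among all tested genes, TPM of the groups did not overlap for 37.1%, and for 21.5% they were higher upon Lam-KD.

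*msl-2*, which encodes the RING-finger subunit, stood near *msl-1* in level but not in the sign of its difference. The controls had 6.03, 7.05 and 5.46 TPM and the Lam-KD testes 5.97, 5.76 and 5.36 TPM, and these ranges overlapped. The log2 fold change was -0.21 ± 0.11 (SE), with a 95% interval from -0.45 to 0.037 and an adjusted *P* of 0.206 in edgeR. Counts were also scaled for library size and RNA composition, without transcript length (CPM after TMM normalization). The controls then had 25.4, 28.1 and 25.996 and the Lam-KD testes 24.0, 22.4 and 22.4, so that the groups no longer overlapped. TMM-scaled CPM did not overlap for 40.7% of all tested genes. The 2 scales differed in general, as the median log2 ratio of mean TPM over all tested genes was 0.098, beside a median log2 fold change of 0.013 in edgeR. The *msl-2* transcript was detected in every library, with 143 to 183 expected reads. These bulk testes also held somatic cells, and whether the RNA of *msl-2* and the other members came from germline or somatic cells was not tested.

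*msl-3* encodes the chromodomain subunit, which recognizes methylated histone H3 at lysine 36. Its level was 39.5, 42.8 and 31.4 TPM in the controls and 42.3, 43.8 and 37.97 TPM upon Lam-KD. The groups overlapped, with control 3 below all other libraries. The log2 fold change was 0.045 ± 0.090 (SE, adjusted *P* = 0.749 in edgeR).

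The RNA helicase gene *mle* and the acetyltransferase gene *mof* encode enzymes of the complex. *mle*, whose product remodels the *roX* RNAs, had 31.8, 35.7 and 23.1 TPM in the controls and 37.1, 40.1 and 30.2 TPM upon Lam-KD. *mof*, which acetylates histone H4, had 11.4, 12.8 and 6.75 TPM in the controls and 11.7, 11.1 and 10.7 TPM upon Lam-KD. Both were lowest in control 3, and both overlapped between the groups. The log2 fold changes were 0.16 ± 0.11 for *mle* (adjusted *P* = 0.320 in edgeR) and 0.040 ± 0.16 for *mof* (adjusted *P* = 0.874), which has the widest interval of the 7 members, from -0.30 to 0.38. Without control 3, the value for *mof* was -0.13.

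*Clamp* encodes a zinc-finger protein that binds GA-rich sequences and helps to bring the complex to the X. It was the most abundant member, with 64.2, 62.9 and 54.7 TPM in the controls and 64.4, 62.5 and 61.8 TPM upon Lam-KD. These values differed by less than the spread between controls, and the log2 fold change was -0.033 ± 0.077 (adjusted *P* = 0.784 in edgeR). *JIL-1* encodes a kinase of histone H3 that is enriched on the X of males. It had 36.2, 40.9 and 35.4 TPM in the controls and 36.4, 37.9 and 32.7 TPM upon Lam-KD, which overlapped, and the log2 fold change was -0.16 ± 0.081 (adjusted *P* = 0.172). In CPM after TMM normalization, *JIL-1* had 225, 245 and 249.6 in the controls and 219, 218 and 206 upon Lam-KD, so that it was lower in all Lam-KD libraries. On this scale the groups did not overlap for 3 of the 7 members, as *msl-2* and *JIL-1* were lower and *msl-1* was higher upon Lam-KD, beside 40.7% of all tested genes.

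**Figure D1:**
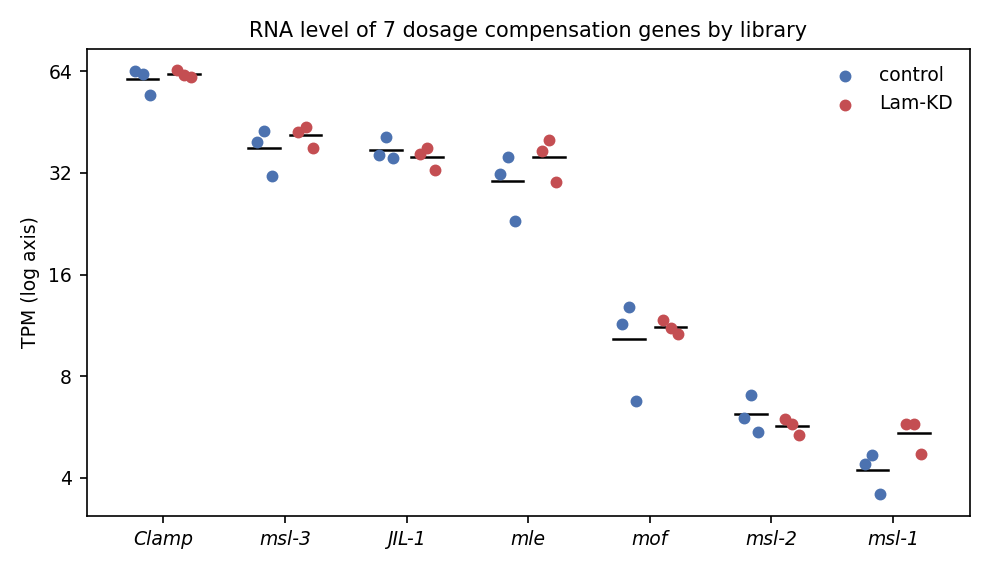
RNA level of the 7 members, in TPM on a log axis, in each control (blue) and Lam-KD (red) library, with black lines at the group means. The groups overlap for all members except *msl-1*, and control 3, the right-hand blue point of each gene, is the lowest library for 5 of the 7.

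**Figure D2:**
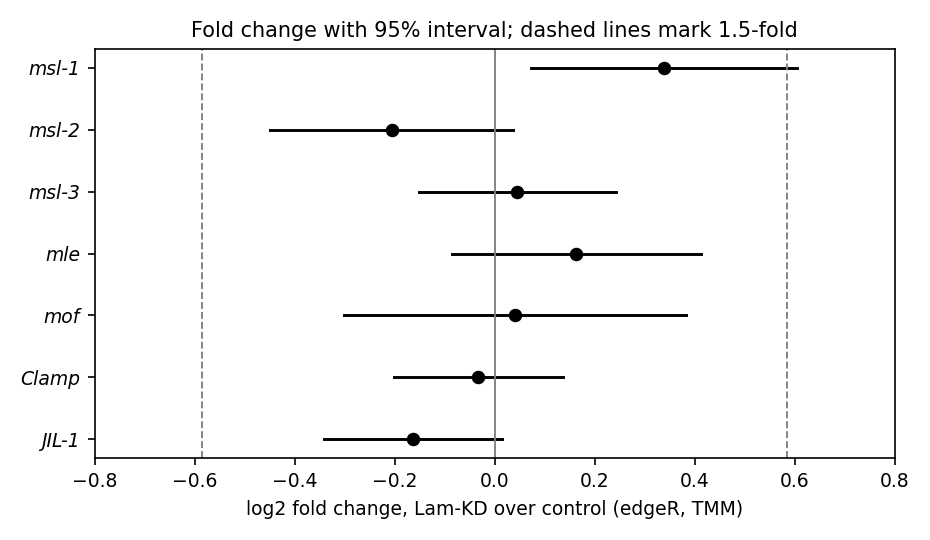
Log2 fold change upon Lam-KD from edgeR, with bars for the 95% interval and dashed lines at 1.5-fold. The intervals of 6 members lie between the dashed lines, and that of *msl-1*, from 0.073 to 0.60, passes the upper one.

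Control 3 was the lowest library for many genes, including most members. It had the lowest TPM of the 6 libraries for 5 of the 7 members, beside 52.3% of all tested genes, and by TMM-scaled CPM it was lowest for 4 of 7, beside 33.7% of all tested genes. Leaving it out turned the sign of the log2 fold change for *msl-3* and *mof* but gave no call.

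The order of levels was nearly the same in both groups. In controls, mean TPM declined from *Clamp* (60.6 ± 5.17, SD) through *msl-3* (37.9 ± 5.83), *JIL-1* (37.5 ± 2.96), *mle* (30.2 ± 6.44), *mof* (10.3 ± 3.18) and *msl-2* (6.18 ± 0.803) to *msl-1* (4.21 ± 0.576). The neighbours *msl-3* and *JIL-1*, *JIL-1* and *mle*, and *mof* and *msl-2* overlapped in their ranges. Upon Lam-KD, *mle* (35.8 ± 5.08) and *JIL-1* (35.7 ± 2.64) exchanged places within their spread, and *msl-2* (5.69 ± 0.305) and *msl-1* (5.41 ± 0.609) now overlapped. Among all tested genes, the control level of *Clamp* was higher than that of 68.9% and the level of *msl-1* higher than that of only 20.2%, with 25.8% for *msl-2* and 34.7% for *mof*. The scaffold and the limiting subunit were thus the weakest of the 7 genes in the testis.

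In a comparison added after the data were seen, the levels of the other members were set against *msl-2* within each library. As *msl-2* had the lowest log2 fold change of the members (-0.21), this choice raises every ratio upon Lam-KD. The TPM ratio of *msl-1* to *msl-2* was 0.731, 0.663 and 0.653 in the controls and 0.967, 0.999 and 0.877 upon Lam-KD. The 2 groups were apart, with means of 0.682 ± 0.0425 and 0.948 ± 0.0632 (SD), a 1.39-fold difference. The ratio to *msl-2* was also higher in all Lam-KD libraries for *mle* (4.85 against 6.27), *mof* (1.65 against 1.96), *msl-3* (6.12 against 7.26) and *Clamp* (9.86 against 11.1). For *JIL-1*, with 6.10 against 6.26, the groups overlapped. Each of these 5 separations gave the smallest two-sided *P* that an exact permutation of 3 against 3 libraries allows, 0.1, and 0.12 after adjustment over the 6 ratios. All 6 ratios share *msl-2* as the denominator, and of 10275 genes set against *msl-2* in the same way, 41.4% were higher in all Lam-KD libraries (46.4% were apart in either direction).

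**Figure D3:**
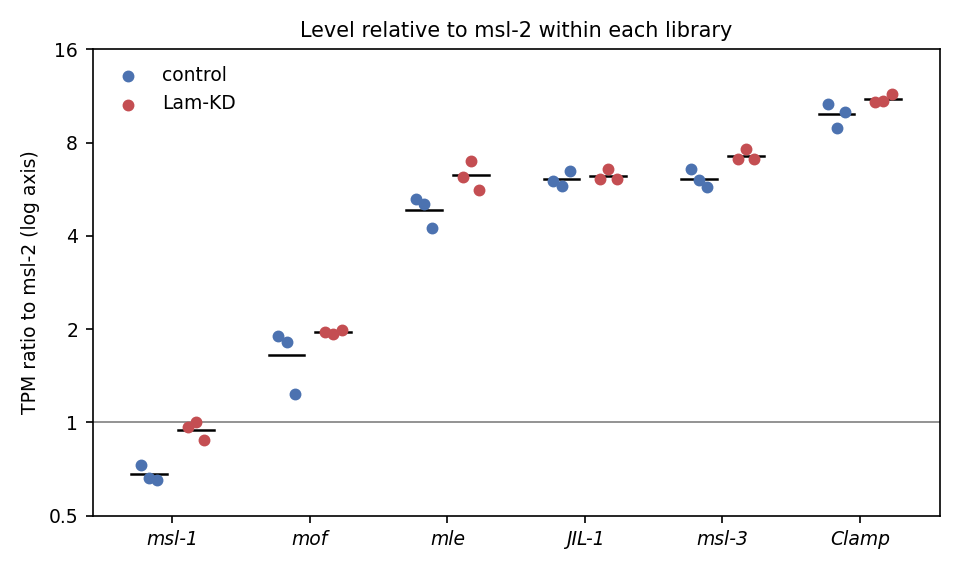
TPM ratio of 6 members to *msl-2* within each control (blue) and Lam-KD (red) library, on a log axis with black lines at the group means. The *msl-1* ratio moved from between 0.653 and 0.731 to between 0.877 and 0.999, and only *JIL-1* overlapped between the groups.

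The tables also give for each gene a mean transcript length, which *Salmon* weights by the abundance of the annotated transcripts, so that it shifts when the share of long and short transcripts shifts. It could vary for 5 members, whereas *msl-3* (1970 nt) and *mof* (3014 nt) had a fixed length. For *msl-1* it was 3928, 3808 and 3851 nt in the controls and 4028, 3991 and 4036.5 nt upon Lam-KD. All Lam-KD values were above the controls, by 4.04% on average, but the adjusted *P* was 0.237 in limma (unadjusted *P* = 0.0079). Among 5389 genes with a variable length, 0.705% passed the adjusted threshold, 11.3% had an unadjusted *P* under 0.05, and 9.17% were longer in all Lam-KD libraries. *msl-2* measured 3773, 3718 and 3758 nt in the controls and 3752, 3750 and 3710 nt upon Lam-KD, and it overlapped between the groups, as did *mle*, *Clamp* and *JIL-1*.

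**Figure D4:**
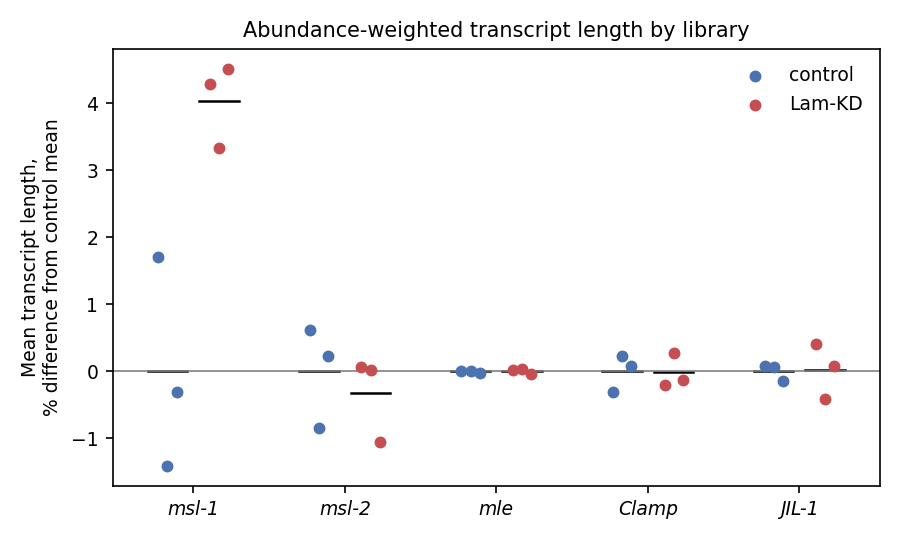
Mean transcript length of the 5 members for which it varied, as percent difference from the control mean, in each control (blue) and Lam-KD (red) library with black lines at the group means. *msl-1* is longer by 4.04% on average upon Lam-KD, and the other 4 overlap between the groups.

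Genes that act beside the complex were described in 4 lists, of which 35 of 36 genes were tested. *Top2* was not analysed here. By the rule with the fold threshold, 1 of these genes rose and 0 fell, beside 3.19% and 3.22% of all tested genes. By the adjusted *P* alone, 3 were higher and 0 lower, which is 8.57%, beside 12.6% of all tested genes (5.31% higher and 7.34% lower); of the 7 members, 0 passed it. The median log2 fold change over the 35 genes was 0.11.

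The first list comprised 11 genes of *msl-2* repression and sex determination, of which 2 passed the adjusted *P*, both higher. *her*, a zinc-finger gene required for sex determination, rose from 5.09, 6.83 and 4.80 TPM to 8.82, 10.1 and 12.2 TPM. These groups were apart, and the log2 fold change was 0.81 ± 0.17 (adjusted *P* = 0.0131 in edgeR), but without Lam-KD 3 the adjusted *P* was 0.0559. *Unr*, whose protein joins Sxl on the *msl-2* messenger in females, had 14.9, 15.6 and 9.86 TPM in the controls and 21.2, 19.4 and 19.4 TPM upon Lam-KD. Its groups were also apart, and its log2 fold change of 0.48 ± 0.11 passed the adjusted *P* (0.0190), while the 1.49-fold difference in mean TPM did not pass the fold threshold. Its adjusted *P* was 0.0816 to 0.0827 with limma, and 0.0611 to 0.103 when any 1 Lam-KD library was left out. *Sxl* itself, the switch gene of sex determination, overlapped between the groups with 8.12 to 10.4 TPM in the controls and 8.42 to 10.6 TPM upon Lam-KD (log2 fold change -0.016, adjusted *P* = 0.934). The splicing factor gene *tra2* was the most abundant of the list, with 196 ± 40.4 and 231 ± 12.7 TPM (SD), and did not pass the test (adjusted *P* = 0.243).

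The other lists held 1 gene that passed the adjusted *P*. Of 6 genes of the NSL complex, in which *mof* also acts, 0 passed. Their median log2 fold change was 0.14, beside 0.013 for all tested genes. The most abundant of them was *Rcd5*, with 49.6 ± 8.82 TPM in the controls and 56.6 ± 4.08 upon Lam-KD (SD, adjusted *P* = 0.426 in edgeR). Of 5 relatives of *msl-3* and *mof*, the acetyltransferase gene *Tip60* was higher upon Lam-KD. It had 12.2, 13.5 and 11.2 TPM in the controls and 18.3, 17.8 and 14.6 TPM upon Lam-KD, with the groups apart (log2 fold change 0.40 ± 0.12, adjusted *P* = 0.0455 in edgeR), although its fold change of mean TPM, 1.37, was below the threshold. With DESeq2 its adjusted *P* was 0.0762 and with limma 0.105 to 0.109, and it ranged from 0.0406 to 0.200 when 1 library was left out. The chromodomain gene *MRG15*, the most abundant of this list in controls, had 19.8 ± 3.54 against 21.5 ± 2.24 TPM (adjusted *P* = 0.855). Of 13 tested chromatin factors tied to the male X, to *JIL-1* or to *Clamp*, 0 passed, with a median log2 fold change of 0.0078. *Pof*, which binds the fourth chromosome and leads this list in abundance, had 826 ± 61.5 TPM in the controls and 769 ± 15.7 upon Lam-KD (adjusted *P* = 0.262).

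**Figure D5:**
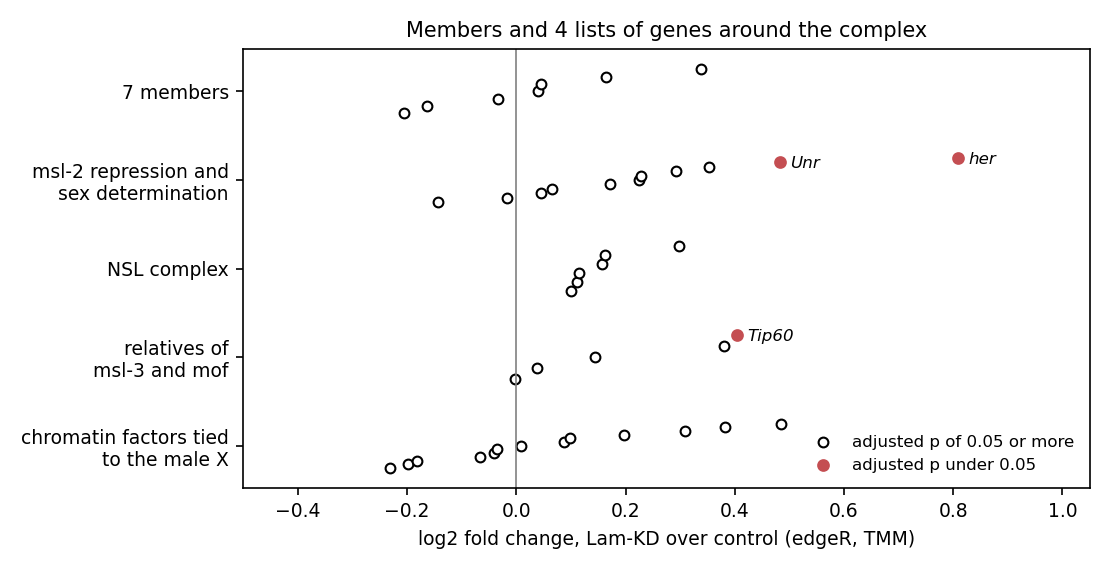
Log2 fold change upon Lam-KD from edgeR for the 7 members and for the tested genes of 4 lists around the complex, 1 point per gene, with filled points for an adjusted *P* under 0.05. The members lie between -0.21 and 0.34, and the 3 filled points are *Unr*, *her* and *Tip60*.

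The sums of 2 marker lists did not overlap between the groups, and 1 gene made up most of each. The summed TPM of the 3 hub markers was 8.47 to 8.92 in the controls and 9.83 to 10.7 upon Lam-KD, of which *upd1* accounted for 5.41 and 6.51 TPM on average (adjusted *P* = 0.342), while *Fas3* and *hh* overlapped. For the 3 markers of the terminal epithelium and pigment cells the sum was 15.4 to 16.7 against 21.1 to 26.3. Of this, *w* accounted for 14.1 and 20.9 TPM (adjusted *P* = 0.0167 in edgeR). *Sox100B* was apart as well, with 1.47, 1.57 and 1.62 against 2.41, 2.61 and 2.20 TPM (adjusted *P* = 0.128 in edgeR), while *Abd-B* overlapped. Whether the strains of the groups differed at *w* is not given in the sources used here. The summed groups overlapped for early germline markers (15.9 to 28.6 against 28.5 to 32.5), somatic cyst cells (37.9 to 47.6 against 44.5 to 48.6), haemocytes (8.54 to 17.8 against 10.3 to 12.3) and muscle (4.85 to 5.75 against 4.53 to 5.11). Single markers within the overlapping sums nevertheless passed the adjusted *P*, and these were named after their values were seen. In cyst cells *tj* was higher (log2 fold change 0.66, adjusted *P* = 0.0452) and *so* lower (-0.66, adjusted *P* = 0.0230). The muscle gene *Mhc* was lower (-0.71, adjusted *P* = 0.0429 in edgeR), as was the fat body gene *Lsp1gamma* (-0.73, adjusted *P* = 0.0155). The spermatocyte gene *sa* was higher (0.35, adjusted *P* = 0.0226). Other tested markers of these lists did not pass and went both ways. Muscle *Act57B* had 0.38 and *Mlc2* -0.74. In the fat body, *Lsp1alpha* (0.54), *Fbp1* (0.47) and *apolpp* (0.35) were higher and *Lsp1beta* (-0.43), *Lsp2* (-0.44) and *Fbp2* (-0.47) lower. Among spermatocyte genes, *aly* (0.25), *comr* (0.29) and *tomb* (0.050) were higher and *fzo* (-0.22), *twe* (-0.17), *topi* (-0.11) and *can* (-0.0014) lower. The part of these cells in the differences of *msl-1*, *her*, *Unr* and *Tip60* was not tested.

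The expression of X-linked genes was examined beside the members. The median log2 fold change was 0.070 for 1633 X-linked and -0.00085 for 8418 autosomal genes, and 54.4% of the X-linked genes were above *mof*, the X-linked member. Of X-linked genes 5.94% were called, and of autosomal genes 6.52%. Within a library, the ratio of median TPM of X-linked to autosomal genes with a TPM over 1 was 0.669, 0.679 and 0.656 in the controls and 0.730, 0.710 and 0.706 upon Lam-KD. All Lam-KD libraries were above the controls, and the exact permutation test gave the smallest *P* it allows, 0.1. For genes with a TPM over 5, however, the ratio was 0.751 ± 0.0140 in controls and 0.739 ± 0.00281 upon Lam-KD (SD), with an exact *P* of 0.3. For genes with a TPM over 10 it was 0.777 ± 0.0268 and 0.794 ± 0.0121 (SD, exact *P* = 0.4), and for all genes with a TPM over 0 it was 0.700 ± 0.0186 and 0.736 ± 0.0207 (exact *P* = 0.2), so that the direction turned at a TPM over 5 alone and the groups overlapped at each of these 3 thresholds.

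The genes beside or over the *roX* loci were described by the gene order and overlaps in the Release 6 annotation. Their levels do not stand in for those of the *roX* RNAs. Beside *roX2* on the X, *nod*, a kinesin-like gene of chromosome segregation, fell from 13.01, 11.3 and 8.60 TPM to 6.59, 5.99 and 7.62 TPM. The groups were apart (log2 fold change -0.77 ± 0.15, adjusted *P* = 0.0102 in edgeR), whereas *CG11695* on the other side did not pass (0.27 ± 0.17, adjusted *P* = 0.271). *ec*, which overlaps *roX1*, also fell, from 1.14, 0.857 and 0.733 TPM to 0.582, 0.628 and 0.465 TPM, on 26 to 64 expected reads per library (log2 fold change -0.82 ± 0.22, adjusted *P* = 0.0346). Both *nod* and *ec* were called by the rule with the fold threshold, beside 3.22% of all tested genes called lower, and the other neighbours were not. Whether strand was used in counting is not given in the sources used here, so that reads of overlapping genes cannot be told apart. The genes on both sides of *roX1*, *CG2901* and *yin*, had log2 fold changes of -0.19 (adjusted *P* = 0.297) and 0.041 (adjusted *P* = 0.880).

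The position of *msl-2* relative to lamina-associated domains (LADs) could be read from the Lam-DamID domains on dm3. Its start site was outside the called LADs at both stages, and the other members were not placed. The paper also finds most promoters of ubiquitously expressed genes outside LADs at both stages. It holds that true LADs are probably larger than called, because bins without Dam reads were left as gaps. The nearest LAD began 8189 bp upstream in SpG (chr2L:3474301-3479400) and 6689 bp upstream in SpCs (chr2L:3472801-3474900). The LADs were called by the authors on merged replicates in bins of 300 bp, so that this difference has no error estimate. SpG and SpCs also differed in genotype, age and Dam construct, which cannot be told apart from stage.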

How the data were processed

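Third-instar larval testes were profiled by poly(A)+ RNA-seq (3 control and 3 Lam-KD libraries). The authors deposited expected counts per gene, estimated with *Salmon* on the BDGP5 annotation without normalization, together with TPM and a mean transcript length from the same estimates. LADs were deposited by the authors as domains on dm3, called on merged replicates.

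Expected counts were rounded to whole numbers and tested here with edgeR 4.0.16 (quasi-likelihood, TMM) in R 4.3.3 on genes that reached 10 expected reads in 3 or more libraries, without *Lam* and *LamC*. Adjusted *P* values are Benjamini-Hochberg values over all tested genes. Transcript lengths were tested with limma 3.58.1 on the log2 scale, for which genes with a variable length were used. Ratios within libraries were compared by two-sided exact permutation. Alternatives comprised DESeq2 1.42.0, limma on log2(TPM + 1) and log2(TPM + 0.1), other filters and normalizations, a replicate block and leaving out each library. The SE was derived from the log2 fold change and its quasi-likelihood *F*. The steps were tested on simulated data.

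The members and lists were chosen with earlier results of these data known. Named list genes were those with an adjusted *P* under 0.05, the most abundant of each list and *Sxl*. The analyses of transcript length, of ratios to *msl-2* and of the X to autosome ratio of median TPM were added, with their alternatives, after the data were seen. Symbols and chromosomes came from the Release 6 gene table, whose coordinates served only to find the genes beside or over the *roX* genes and were not set against dm3 positions. The *roX* RNAs were not analysed here, and the markers *vas*, *PPO1* and *wupA* were not matched. With 5651960 to 7437111 expected reads per library, genes with few reads have a wide error.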

Additional observations from a re-analysis of the deposited data

How the results depend on the processing

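The count of 0 called members held in all 16 alternatives, which bounds only what 3 libraries per group can show. The called genes of the lists numbered 1, and 3 without the fold threshold. Leaving out 1 library gave 0 to 2 (0 without Lam-KD 3). Over all genes the count was 661, 1305 without the fold threshold, and 328 to 820 when 1 library was left out. The sign turned for *Clamp* with limma, to 0.056 with TPM + 1 and 0.057 with TPM + 0.1, and for the X to autosome ratio with a TPM over 5, to -0.023 on the log2 scale (0.099 with a TPM over 1, 0.073 over 0 and 0.032 over 10). Leaving out 1 library gave log2 fold changes of 0.29 to 0.40 for *msl-1*, -0.24 to -0.16 for *msl-2*, -0.0083 to 0.087 for *msl-3*, 0.066 to 0.25 for *mle*, -0.13 to 0.17 for *mof*, -0.052 to -0.0031 for *Clamp* and -0.21 to -0.13 for *JIL-1*. The log2 difference in transcript length ranged from -0.011 to 0.00063 for *msl-2*, -0.00012 to 0.00034 for *mle*, -0.0024 to 0.0014 for *Clamp* and -0.0024 to 0.0035 for *JIL-1*. Their cause was not tested. *Unr* lost its adjusted *P* under 0.05 in 5 of 13 alternatives, *Tip60* in 7 and *her* in 1. Same-numbered libraries correlated in their deviations at 0.0592, 0.0732 and 0.177. Control 1 correlated best with Lam-KD 2 (0.107), whereas controls 2 and 3 correlated best with the Lam-KD library of their own number. Whether same-numbered libraries were paired cannot be told from these values. With the replicate block, 0 members, 1 gene of the lists and 827 genes in all were called, and the log2 fold change of *msl-1* was 0.34 with an adjusted *P* of 0.0577 in edgeR. The alternatives planned for the ratio of *roX2* to *roX1* were not run, as neither RNA was analysed here.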

Other observations

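Over the 6 libraries, 3 genes had a pattern closest to that of *msl-2* by the root-mean-square difference of centred log2(TPM + 1): *Trf4-2* (0.0217), *CG7218* (0.0247) and *CG1663* (0.0293). Such closeness was common, as 769 of 8119 compared genes were within 0.1 of *msl-2*, with a median distance of 0.191.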
